A study of Papilio machaon with 10 samples.

Results

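Adults of the swallowtail butterfly Papilio machaon were compared with pupae of the same sex, gene by gene, in RNA from whole bodies. The comparison used 4 of the 10 libraries of a developmental series: female adult, male adult, female pupa and male pupa, each made from 1 individual. The other 6 libraries were egg and the larval instars L1 to L5, and were used only to describe where the genes were found earlier in life. Genes were kept when their mean RPKM (reads scaled by the length of the gene and by the depth of the library) over the 4 libraries was at least 1, which held for 13791 of the 15285 genes in the table and left out 1494. The genes just inside this minimum had mean RPKM values of 1.0015 and 1.0023, and those just outside it 0.99833 and 0.99988. The labels give stage, sex and whole body. They do not give the age of a pupa or an adult, the mating state or the culture, and wild-collected and purchased animals cannot be told apart. Sex, individual and age within a stage therefore cannot be told apart either. With sex as a term, p-values rest on the spread between the female and the male adult minus pupa difference, each from single individuals.

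Metamorphosis in butterflies takes place in the pupa, where most larval tissues are broken down and adult wings, legs, eyes and flight muscle grow from imaginal discs and other precursor cells. Pulses of ecdysteroid hormone, with juvenile hormone low or absent, set off the sequence. The adult that emerges has a new cuticle covered with scales, a sucking mouthpart, a nervous system tuned to flight and courtship, and maturing gonads and reproductive glands. In whole bodies the RNA of all these tissues is mixed, and fewer cells of a type and less RNA per cell cannot be told apart. Genes are listed in the table by locus tag without names, and the gene table at hand (RefSeq, assembly ilPapMach1.1) holds 0 of these tags. For that reason the genes are given by tag with no function or sequence, at most 2 for each direction of a comparison and choice of genes, and the stage and sex labels could not be checked against marker genes.

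The 4 libraries held between 23604995 reads on genes in the male adult and 32086369 in the male pupa, worked out from the steps between RPKM values. On a gene of 1 kb, the limit set by a count of 0 (3 reads) is 0.115 to 0.152 RPKM in these libraries and covers counting error only. The library depth behind it assumes gene lengths in steps of 3 bp. Genes with an RPKM of at least 1 numbered 11939 in the adult female and 13282 in the adult male, against 12158 in the female pupa and 13210 in the male pupa. The top 10 genes by reads held 21.5% of all reads on genes in the adult female and 19.3% in the adult male, against 11.6% in the female pupa and 11.3% in the male pupa. Across the genes kept, each adult resembled the other adult more than any other library (Spearman's rho 0.76), and each pupa resembled the other pupa most (0.76). Within a sex, rho between adult and pupa was 0.67 in females and 0.60 in males. These correlations run over genes, not over independent samples, and all RPKM values depend on the depth of their library.

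The first question was how far adults stood from pupae in each sex. Differences are adult minus pupa on the log2(RPKM + 1) scale, which understates the fold of genes with low values. The median difference over all 13791 genes was -0.41 in females and -0.22 in males, so that a typical gene was slightly lower in the adult on the deposited scale. In females 5035 genes were higher in the adult and 8584 lower, and in males 5734 were higher and 8038 lower. The values were at least 2-fold apart for 51.1% of genes in females and 39.5% in males. With the libraries scaled to the same 75th percentile the medians were -0.09 in females and -0.08 in males, and with scaling to the reads on genes they were -0.687 in females and -0.185 in males, so the size of the general shift depends on the scaling. Reads on genes exceeded the library depth implied by the RPKM values, by unlike amounts. In females they were 27200271 against 20785152 in the adult and 27014732 against 25824498 in the pupa. In males they were 23604995 against 19754231 in the adult and 32086369 against 26200263 in the pupa. The depths assume gene lengths in steps of 3 bp, which sets their scale and so the size of the excess. The reason for the excess was not tested.

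At 4-fold or more, 2865 genes were apart between the female adult and the female pupa (20.8% of those tested), of which 1270 were higher in the adult (9.21%) and 1595 lower (11.6%). Between the male adult and the male pupa 2329 genes were apart (16.9%), 1209 of them higher in the adult (8.77%) and 1120 lower (8.12%). With 1 library per sex and stage these counts have no replicate check. Higher genes made up 44.3% of those apart in females. This share was 58.3% with 75th percentile scaling, 33.1% with scaling to reads on genes and 61.0% with each sex centred on its own median, so which direction was the more frequent in females depended on the scaling. In males higher genes made up 51.9%, and 52.9% to 59.1% under these alternatives, but 45.1% of the genes at least 2-fold apart.

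**Figure D1:**
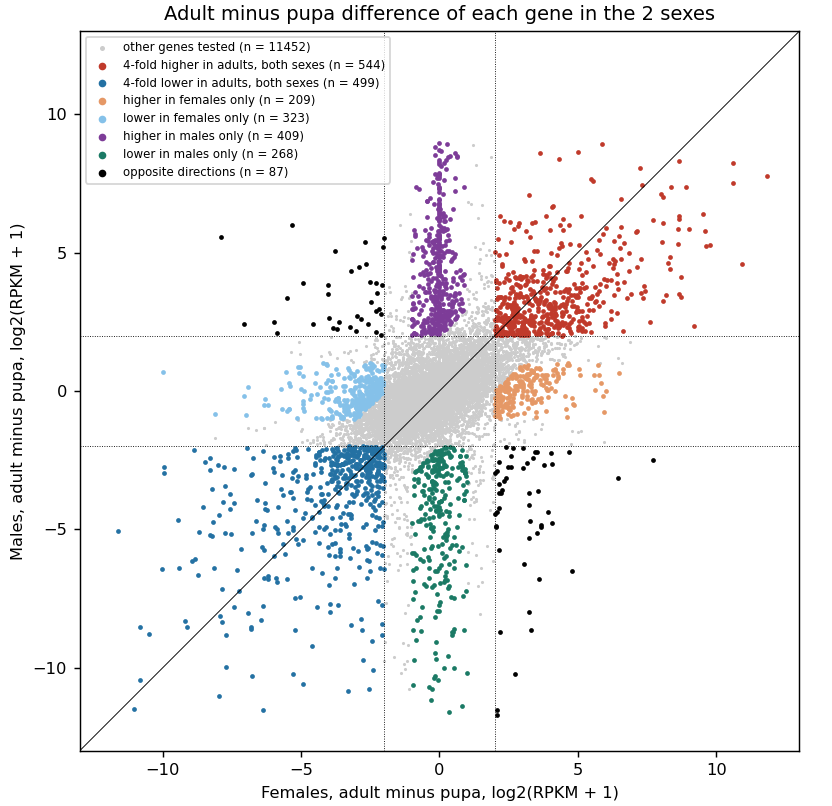
Adult minus pupa difference in males (vertical axis) against that in females (horizontal axis), both on the log2(RPKM + 1) scale, with 1 point per gene for 13791 genes. Colours mark genes at least 4-fold apart the same way in both sexes, in opposite ways, or in 1 sex with the other under 2-fold and the sexes 4-fold apart, and the cloud runs along the diagonal with arms on both axes (Pearson's r 0.50 across genes).

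The direction was shared by the sexes for 9902 genes (71.8%), with 3477 higher and 6425 lower in adults of both sexes at any size of difference. Across genes, Pearson's r between the female and the male difference was 0.50 and Spearman's rho 0.54. At 4-fold or more in both sexes, 544 genes were higher in adults (3.94% of those tested) and 499 lower (3.62%). Higher genes made up 52.2% of these 1043 genes (7.56%). This share was 62.0% with 75th percentile scaling and 65.3% with each sex centred on its median, but 48.3% with scaling to reads on genes and 41.9% at 2-fold or more, so the more frequent direction turns with the setting. The 544 genes are 42.8% of the genes higher in the female adult and 45.0% of those higher in the male adult. The 499 genes are 31.3% of the genes lower in the female adult and 44.6% of those lower in the male adult.

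Genes apart in 1 sex were mostly, but far from always, on the same side in the other. Of the 1270 genes higher in the female adult, 336 were higher by 2-fold to 4-fold in the male adult, 313 were under 2-fold, 26 were lower by 2-fold to 4-fold and 51 lower by 4-fold or more. Of the 1595 genes lower in the female adult, 462 were lower by 2-fold to 4-fold in the male adult, 559 were under 2-fold, 39 were higher by 2-fold to 4-fold and 36 higher by 4-fold or more. For the 1209 genes higher in the male adult, the same groups in females held 140, 453, 36 and 36 genes. For the 1120 genes lower in the male adult, they held 197, 316, 57 and 51 genes. The median difference of the genes chosen in one sex was smaller in the other: genes higher in the female adult had a median of 3.02 in females and 1.75 in males, and genes higher in the male adult had 3.11 in males and 1.64 in females. Part of this gap follows from choosing the genes on 1 sex.

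**Figure D2:**
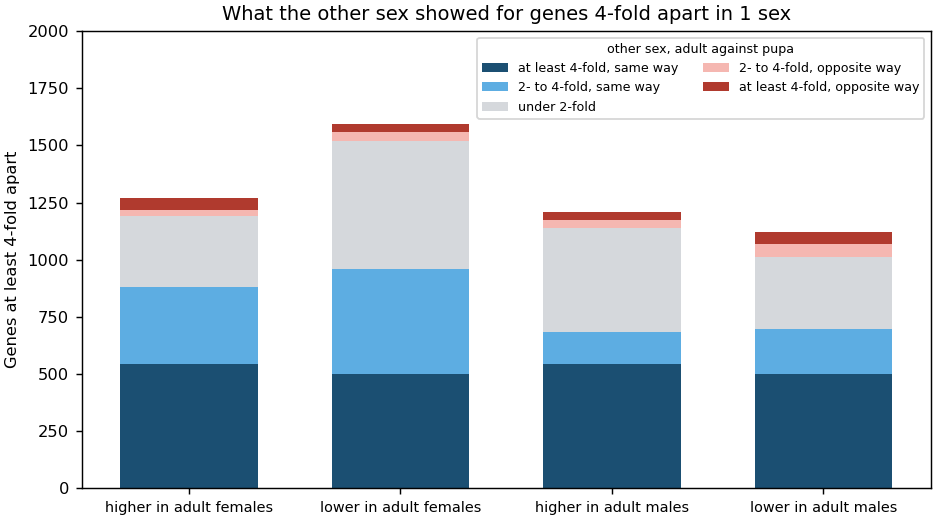
Number of genes (vertical axis) at least 4-fold higher or lower in the adult of 1 sex, 1 bar for each sex and direction, divided by the adult minus pupa difference of the same genes in the other sex. The darkest blue segment, at least 4-fold the same way, holds 544 of 1270 and 499 of 1595 genes in the female bars and 544 of 1209 and 499 of 1120 in the male bars.

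limma with sex as a term was used to ask which genes stood apart between adults and pupae. The yardstick was the gap between the female and the male adult minus pupa difference. After Benjamini-Hochberg adjustment 0 of 13791 genes passed an adjusted p of 0.05 (0.0%), and the smallest adjusted p was 0.0543. At an unadjusted p under 0.05 there were 2905 genes (21.1%), 1247 higher in adults (9.04%) and 1658 lower (12.0%). All 544 genes higher and all 499 genes lower by 4-fold in both sexes were among them, which follows in part from how they were chosen. The fit had 1 residual degree of freedom before moderation, so its spread is the difference between a single female and a single male comparison. The count of 0 depended on the settings: it was 215 with a pseudocount of 0.1, 371 with scaling to reads on genes and 525 with a mean RPKM of at least 5, and the genes below are therefore described by their values.

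Among the genes higher in adults of both sexes, the difference was larger in females for 363 of 544 (66.7%), with medians of 3.67 in females and 3.08 in males. Over all genes tested the median size of the difference was also larger in females, at 1.03 against 0.77 in males. The share of 66.7% was worked out on the deposited scale only. For 86 of the 544 the difference was at least 16-fold in both sexes, and for 16 at least 64-fold. RR48_13303 had 10258 RPKM in the female adult and 1403 RPKM in the male adult, against 24.4 RPKM in the female pupa and 3.47 RPKM in the male pupa. Both adults lay above both pupae, and the ratio of adult to pupa was 420 in females and 404 in males (95% intervals from read counts 369 to 480 and 288 to 588, exact, counting error only). The limma difference was 8.48 (SE 0.435, adjusted p = 0.0543). RR48_14116 had 4095 RPKM in the female adult and 1915 RPKM in the male adult, against 1.61 RPKM in the female pupa and 5.33 RPKM in the male pupa. Its adults did not overlap with its pupae either, with differences of 10.61 in females and 8.24 in males. In the earlier stages RR48_14116 was present throughout, at 419 RPKM in the egg and 44.3 to 249 RPKM in L1 to L5, whereas RR48_13303 had 3.07 RPKM in the egg and 0.728 to 99.6 RPKM in the larvae.

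The most abundant genes of this kind differed in sex balance. RR48_13310 had 79296 RPKM in the female adult and 7822 RPKM in the male adult, against 20.9 RPKM in the female pupa and 34.9 RPKM in the male pupa. It took 618070 reads in the adult female and 57941 in the adult male, and its limma difference was 9.80 (SE 1.08, adjusted p = 0.076). RR48_09232 had 24693 RPKM in the female adult and 159568 RPKM in the male adult, against 5869 RPKM in the female pupa and 11985 RPKM in the male pupa. This gene was abundant at every stage, from 5115 to 11316 RPKM in egg and larvae, so that it stood highest in the male adult without being absent anywhere. Its difference was 2.07 in females and 3.73 in males (adjusted p = 0.15), and in females it was 1.75 with scaling to reads on genes, which is under 4-fold.

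Among the genes lower in adults of both sexes, the difference was larger in females for 287 of 499 (57.5%), with medians of -3.43 in females and -3.13 in males. This share too was worked out on the deposited scale only, where differences over all genes were larger in females. For 97 of the 499 the difference was at least 16-fold in both sexes, and for 31 at least 64-fold. RR48_04865 had 0.935 RPKM in the female adult and 2.74 RPKM in the male adult, against 4029 RPKM in the female pupa and 10669 RPKM in the male pupa. The adults' values rest on 14 and 39 reads, and the pupae's on 74908 and 201260. The limma difference was -11.25 (SE 0.439, adjusted p = 0.0543). RR48_04863 had 1.45 RPKM in the female adult and 0.926 RPKM in the male adult, against 4413 RPKM in the female pupa and 2702 RPKM in the male pupa. Both genes were close to absent in the other stages: RR48_04865 had at most 3.64 RPKM and RR48_04863 at most 0.444 RPKM in egg and larvae. RR48_14719 was the other most abundant gene lower in adults, with 2.50 RPKM in the female adult and 4.39 RPKM in the male adult, against 10971 RPKM in the female pupa and 179 RPKM in the male pupa. Its pupae lay far apart while its adults lay close together, with differences of -11.61 in females and -5.06 in males (adjusted p = 0.112).

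**Figure D3:**
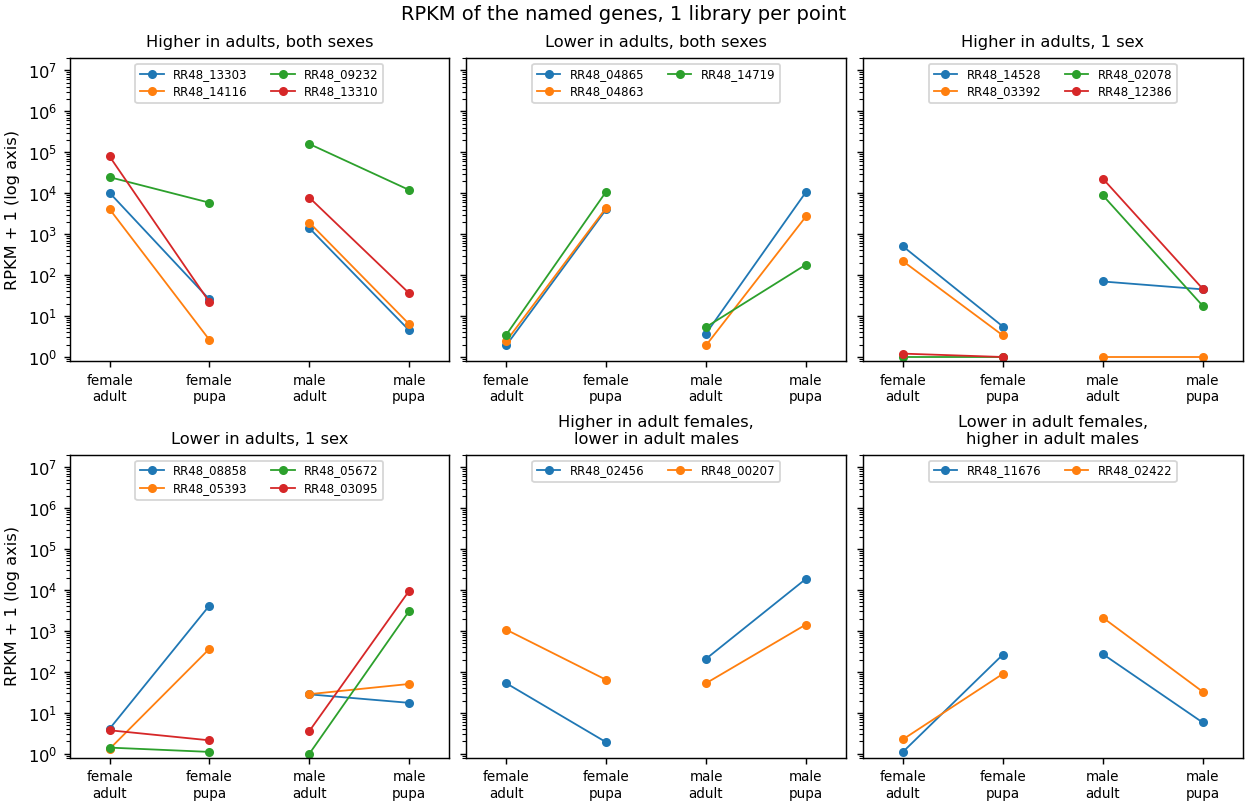
RPKM + 1 (log axis) of the genes named in the text, 1 point per library and no replicates, with lines joining the adult and the pupa of a sex. In the upper left and upper middle panels the lines slope the same way in both sexes, in the lower middle and lower right panels they cross in direction, and in the other panels 1 sex is steep and the other flat.

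The genes higher in adults filled a large part of the adult libraries. The 544 genes took 34.2% of the reads on genes in the adult female and 28.3% in the adult male, against 1.52% in the female pupa and 2.51% in the male pupa. Of the 10 genes with most reads, 7 in the adult female and 5 in the adult male belonged to them. The 499 genes lower in adults took 0.266% of the reads in the adult female and 0.373% in the adult male, against 10.2% in the female pupa and 11.6% in the male pupa, and none of them was among the 10 genes with most reads of either pupa. These shares describe genes chosen by the same values. Since reads compete within a library, a large share for some genes lowers the share left for the others.

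**Figure D4:**
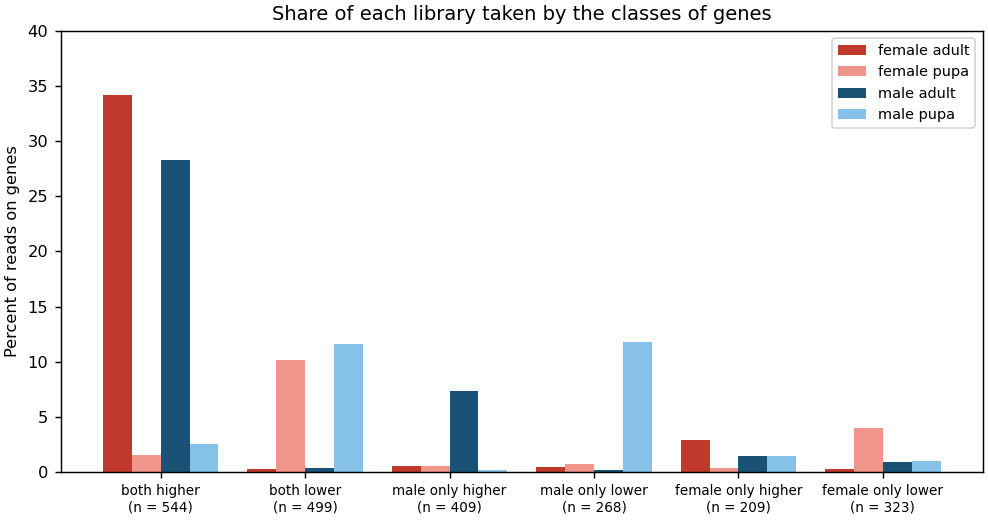
Share of the reads on genes, in percent, taken by each group of genes in the 4 libraries, with the adult left of the pupa within a sex. The genes higher in adults of both sexes take 34.2% and 28.3% of the female and the male adult library, and the genes lower only in the adult male take 11.8% of the male pupa library.

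The egg and larval libraries did not enter the choice of genes, and showed where the groups stood earlier. The 544 genes higher in adults had a median level of 4.53 in the egg on the log2(RPKM + 1) scale, against 3.49 for all genes tested, and 3.91, 2.99, 4.04, 4.26 and 2.98 in L1 to L5, against 3.38, 3.61, 3.63, 3.65 and 2.92. They were thus above the median of all genes in every earlier library except L2, and low in the pupae, at 2.03 in the female and 2.60 in the male. Of the 544 genes, 342 (62.9%) had an RPKM of at least 1 in egg and all larvae, and 26 (4.78%) were under 1 in all of these, against 71.9% and 4.30% of all genes tested. In 284 of them the highest of the 10 libraries was the female adult and for 155 the male adult, against 1608 and 1782 of all 13791 genes tested. That an adult was often the highest follows in part from how the genes were chosen.

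The 499 genes lower in adults had medians of 2.72 in the egg and 2.61, 4.12, 2.67, 2.36 and 1.75 in L1 to L5, below all genes tested except in L2. Of the 499 genes, 11 (2.20%) were under an RPKM of 1 in egg and all larvae, against 4.30% of all genes tested. At 1 or more in all of these were 261 (52.3%), against 71.9% of all genes. L2 lay at least 4-fold above the mean of the other instars for 173 of the 499 genes (34.7%, 95% Wilson interval 30.6 to 39.0), against 5.52% of all genes tested. In the opposite direction, L2 lay at least 4-fold below the other instars for 80 of the 544 genes higher in adults (14.7%, 12.0 to 17.9), against 3.26% of all genes. The intervals treat genes as independent, which they are not. The L2 library stands apart from the other instars: its rho with the male pupa was 0.73, while that of the other instars with the male pupa was 0.59 to 0.62. With the female pupa, L2 had a rho of 0.68 and the other instars 0.70 to 0.74. L1 and L2 were both made from pooled larvae. Whether the stage, the pooling or the library lies behind the place of L2 was not tested.

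**Figure D5:**
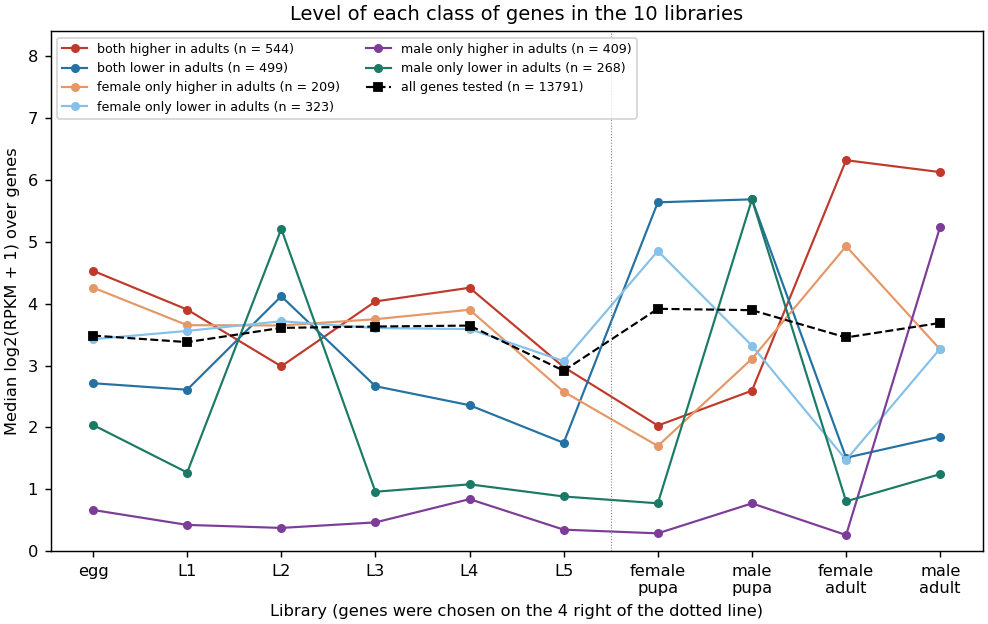
Median level of each group of genes in the 10 libraries, in log2(RPKM + 1), in developmental order, with all 13791 genes tested as a further line. Genes lower in adults of both sexes or only in the adult male have higher medians in L2 (4.12 and 5.21) than the 3.61 for all genes. The median of the genes higher only in the adult male stays under 0.85 in egg and larvae.

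A strict on and off rule gave short lists. An RPKM of at least 5 in both adults and under 0.5 in both pupae held for 38 genes, of which 11 were under 1 in egg and all larvae. Of the 38, 17 reached an RPKM of 1 in the egg, 19 in L4, and 6 in L2. The reverse rule, under 0.5 in both adults and at least 5 in both pupae, held for 40 genes, of which 5 were under 1 in egg and all larvae. Of these 40, 32 reached an RPKM of 1 in L2, against 6 to 19 in the egg and the other larvae. Most genes of both lists therefore reached an RPKM of 1 in egg or larvae. Under 1 in egg and all larvae were 4.30% of all genes tested, a smaller share than in either list. Of all genes tested, 87.3% reached an RPKM of 1 in L2, and 78.6% to 87.55% in the egg and the other larvae.

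The second question was where the sexes differed in the adult against pupa comparison. The female minus male difference of the adult minus pupa values was at least 4-fold for 2381 genes (17.3%), positive for 1089 (7.9%) and negative for 1292 (9.37%). Positive genes made up 45.7%. This share was 34.7% with scaling to reads on genes, but 52.7% with 75th percentile scaling and 53.0% with each sex centred on its median, so the more frequent sign turns with the scaling. A positive value can come from a high female adult or from a high male pupa. The highest of the 4 libraries was the male pupa for 630 of the 1089 (57.9%) and the female adult for 427 (39.2%). For the 1292 negative genes it was the male adult for 727 (56.3%) and the female pupa for 530 (41.0%). For comparison, among all genes tested the female adult was highest for 18.4%, the male adult for 20.3%, the female pupa for 38.2% and the male pupa for 23.1%. The sexes were at least 4-fold apart in the pupa for 652 of the positive genes (59.9%) and in the adult for 735 of the negative genes (56.9%), against 12.4% and 11.7% of all genes. These genes were chosen on the same 4 values, so a gap between the sexes in the pupa, the adult or both is built in. The shares by highest library and by sex gap therefore describe the choice and are not separate results. No spread between individuals of a sex and stage was measured, so none of these differences has a test.

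Among these 2381 genes, those at least 4-fold apart in males and under 2-fold in females numbered 409 higher in the adult male (2.97%) and 268 lower (1.94%). They are called higher or lower only in the adult male here, and are fewer than the genes under 2-fold in females given above because the sexes also had to differ by 4-fold. The 409 genes higher only in the adult male were chosen on the adult and pupa values. By median they were little expressed in every other library. Their median level was 5.25 in the male adult against 0.77 in the male pupa, with 0.26 in the female adult and 0.29 in the female pupa, and 0.35 to 0.84 in egg and larvae. Of these genes 168 (41.1%) were under an RPKM of 1 in egg and all larvae, against 4.30% of all genes tested. The group was mixed, since 115 (28.1%) were at 1 or more in all of these, against 71.9% of all genes. In the male pupa 42.3% of the group were at 1 or more. The male adult was the highest of the 10 libraries for 319, against 1782 of all 13791 genes tested, which follows in part from the choice. The 409 genes took 7.32% of the reads of the male adult and 0.173% of those of the male pupa. RR48_02078 had 8935 RPKM in the male adult against 16.8 RPKM in the male pupa, and was listed at 0 in both female libraries. RR48_12386 had 22864 RPKM in the male adult against 45.6 RPKM in the male pupa, with 0.208 RPKM (1 read) in the female adult and 0 in the female pupa. Neither gene exceeded 1.51 RPKM in egg or larvae, so both were near the limit of detection outside the male pupa and adult.

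The 268 genes lower only in the adult male stood apart in the male pupa, which follows in part from how they were chosen. Their median level was 1.25 in the male adult against 5.69 in the male pupa, with 0.81 in the female adult and 0.78 in the female pupa. The sexes were 4-fold apart in pupae for 244 of them and in adults for 21. L2 was at least 4-fold above the other instars for 152 (56.7%, 95% Wilson interval 50.7 to 62.5), against 5.52% of all genes. The interval treats genes as independent, which they are not. The 268 genes had a median of 5.21 in L2 against 0.89 to 1.27 in the other instars. They took 0.186% of the reads of the male adult and 11.8% of those of the male pupa. RR48_05672 was listed at 0 in the male adult against 3083 RPKM (28108 reads) in the male pupa. With a floor of 3 reads in the male adult library this gene was 7064-fold lower there, with a lower 95% limit from read counts of 5745. It had 0.415 RPKM in the female adult, 0.111 RPKM in the female pupa and 757 RPKM in L2, but at most 0.480 RPKM in the egg and the other instars. RR48_03095 had 2.59 RPKM in the male adult against 9610 RPKM in the male pupa, with 2.75 RPKM in the female adult and 1.13 RPKM in the female pupa. Its level in L2 was 11.1 RPKM, so not every gene of this group stood high there.

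By the same rule, genes apart in females and under 2-fold in males numbered 209 higher only in the adult female (1.52%) and 323 lower (2.34%). Of the 209 higher only in the adult female, 135 (64.6%) had an RPKM of at least 1 in egg and all larvae, and 86.6% had it in the egg, against 71.9% and 87.3% of all genes tested. Among the 409 genes higher only in the adult male these shares were 28.1% and 43.8%. The 209 genes had a median level of 4.93 in the female adult against 1.70 in the female pupa, with 3.26 in the male adult and 3.11 in the male pupa. They took 2.89% of the reads of the female adult and 0.367% of those of the female pupa. RR48_14528 had 502 RPKM in the female adult against 4.55 RPKM in the female pupa, with 68.9 RPKM in the male adult and 43.9 RPKM in the male pupa. RR48_03392 had 217 RPKM in the female adult against 2.36 RPKM in the female pupa, and was listed at 0 in both male libraries, while it had 28.1 RPKM in the egg and 60.6 RPKM in L1. So the group held genes found in both sexes as well as a gene seen in these 2 female but not the 2 male libraries.

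Of the 323 genes lower only in the adult female, 235 (72.8%) were at an RPKM of 1 or more in egg and all larvae, close to the 71.9% of all genes. Their median level was 1.48 in the female adult against 4.85 in the female pupa, with 3.28 in the male adult and 3.32 in the male pupa. L2 was at least 4-fold above the other instars for 16 of them (4.95%), near the 5.52% of all genes and unlike the 56.7% of the genes lower only in the adult male. RR48_08858 had 3.08 RPKM in the female adult against 4182 RPKM in the female pupa, with 27.3 RPKM in the male adult and 16.5 RPKM in the male pupa. RR48_05393 had 0.313 RPKM (9 reads) in the female adult against 366 RPKM in the female pupa, with 27.6 RPKM in the male adult and 49.7 RPKM in the male pupa. In the egg and L1 it had 395 and 358 RPKM, near the level of the female pupa, and in L2 0.737 RPKM.

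Opposite directions at 4-fold or more in both sexes were found for 87 genes (0.631%). Of these, 51 were higher in the female adult and lower in the male adult than in the pupa of their sex (0.37%), and 36 the reverse (0.261%). The 51 genes had median levels of 4.62 in the female adult against 1.37 in the female pupa, and of 2.56 in the male adult against 6.80 in the male pupa. L2 stood at least 4-fold above the other instars for 28 of the 51 (54.9%, 95% Wilson interval 41.4 to 67.7). Over all genes tested this share was 5.52%, and among the 1120 genes lower in the male adult it was 41.0%. The interval treats genes as independent, which they are not. RR48_02456 had 51.7 RPKM in the female adult against 0.915 RPKM in the female pupa, and 208 RPKM in the male adult against 18730 RPKM in the male pupa. It had 990 RPKM in the egg and 5497 RPKM in L2, so the male pupa and L2 were its highest libraries. RR48_00207 had 1072 RPKM in the female adult against 63.0 RPKM in the female pupa, and 51.9 RPKM in the male adult against 1433 RPKM in the male pupa.

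The 36 genes of the reverse pattern had median levels of 0.72 in the female adult against 4.36 in the female pupa, and of 5.64 in the male adult against 2.03 in the male pupa. RR48_11676 had 0.116 RPKM (2 reads) in the female adult against 264 RPKM in the female pupa, and 272 RPKM in the male adult against 4.82 RPKM in the male pupa. The female pupa and the male adult thus stood at nearly the same level, and no egg or larval library exceeded 1.05 RPKM. RR48_02422 had 1.26 RPKM in the female adult against 88.6 RPKM in the female pupa, and 2123 RPKM in the male adult against 31.9 RPKM in the male pupa. Here the adults were much further apart than the pupae.

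Locus tags that follow each other often fell into the same group. Of the 544 genes higher in adults, 186 (34.2%) had the next or the preceding tag in the same group, against 6.64% of all genes tested with such a neighbour. For the 499 lower genes it was 162 (32.5%) against 6.19%, and for the 409 genes higher only in the adult male 117 (28.6%) against 4.85%. The longest run among genes higher in adults held 7 tags, RR48_13310 among them, with 24.5 to 79296 RPKM in the female adult and 5.14 to 7822 RPKM in the male adult, against 0 to 132 RPKM in the female pupa and 0 to 34.9 RPKM in the male pupa. The longest run among genes lower in the male adult held 14 tags, with RR48_04863 and RR48_04865 among them, at 0 to 10.9 RPKM in the male adult against 6.55 to 10669 RPKM in the male pupa. A run of 5 tags higher only in the adult male had 116 to 2261 RPKM in the male adult against 0.458 to 5.21 RPKM in the male pupa, and no more than 0.538 RPKM in either female library. The longest run among genes lower in both sexes held 9 tags, but 7 of them had identical values in all 10 libraries. Such rows may be copies among which reads were shared, and 11 tags of this kind were found in all, every one in the group lower in both sexes, which holds 490 distinct rows. Whether consecutive tags lie next to each other on a chromosome was not tested.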

How the data were processed

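Poly-A RNA was extracted with TRIzol from whole bodies and sequenced as paired ends on an Illumina HiSeq. The authors deposited 1 table of RPKM values, relative to gene length and library depth. The submitters' processing notes name TopHat 1.0.12 and TopHat 1.4.1, and the counting tool is not given in the sources used here. All 10 columns were matched to libraries by name. Whole reads were recovered for all 15285 genes with lengths taken in steps of 3 bp. This assumption sets the scale of the lengths and of the library depths, not that of the reads. They describe depth and counting error only.

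Differences were taken as log2(RPKM + 1), adult minus pupa within a sex, and called at 4-fold. With 1 library per sex and stage this rule has no test. limma 3.58.1 in R 4.3.3, with sex as a term, eBayes and an intensity trend, gave p-values adjusted after Benjamini and Hochberg over 13791 genes (threshold 0.05). The scripts were tested on simulated data. Pairing by sex comes from the labels, across different individuals. Across genes, the female minus male difference in adults had a Pearson's r of 0.26 with that in pupae.

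Genes were named by rule, 2 per direction with at least 20 reads in the higher library: those with the largest smaller difference of the sexes (same or opposite directions), the largest difference in 1 sex with the other under 2-fold, and the highest mean RPKM. Alternatives were another pseudocount, scaling, filter, fold and model. The genes, lists and alternatives were chosen with earlier results of these data known. Python was version 3.11.15, scipy 1.17.1 and pandas 2.3.3.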

Additional observations from a re-analysis of the deposited data

Results flagged for a closer look

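Opposite directions in the sexes were found for 87 genes at least 4-fold apart in both, and the 4 with the largest smaller difference in either arrangement are given here. The female minus male difference of the adult minus pupa values, on the log2(RPKM + 1) scale, was 11.27 for RR48_02456 and 8.83 for RR48_00207, which were higher in the female adult and lower in the male adult than in the pupa of their sex. It was -13.44 for RR48_11676 and -11.33 for RR48_02422, which had the reverse pattern. With 1 individual per sex and stage these differences between the sexes were not tested.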

How the results depend on the processing

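At least 2-fold in place of 4-fold gave 7046 genes apart in females, 5452 in males, 3137 the same way in both sexes and 5801 that differed between the sexes, against 2865, 2329, 1043 and 2381. The share of genes lower in adults with a high L2 was then 15.8% against 34.7%, and that of genes higher in adults with a low L2 was 9.35% against 14.7%. The other alternatives left these counts within 1.5 times, but opposite directions held for 199 genes with a pseudocount of 0.1 and 392 at 2-fold, against 87.

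The limma count was 0, with 2905 genes at an unadjusted p under 0.05. It was 215 with a pseudocount of 0.1, 371 with scaling to reads on genes, 525 when the minimum mean RPKM was 5, and 546 at a threshold of 0.1, which was chosen after seeing the data. Without the sex term, that is without the pairing by sex as a replicate block, it was 20. It stayed at 0 with 75th percentile scaling, with no filter and without the trend. Leaving out each library in turn, without the sex term, gave 0 to 0, with 1749 (no female adult), 1779 (no female pupa), 1947 (no male adult) and 2287 (no male pupa) genes at an unadjusted p under 0.05. A stage left with 1 library is then assumed to vary like the other. The cause of these changes was not tested.

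Of 90 values of the named genes' called differences under 3 alternatives, 89 were still at least 4-fold the same way, and the exception was RR48_09232 in females. Most of these genes were chosen for large differences in the same values, so this follows in part from the choice. RR48_09232 was chosen for its abundance. Centring each sex and counting identical tags once were also chosen after seeing the data. Depth limits low genes only: of the 13791 genes, 122 had under 20 reads in their highest library. No count has a check against other individuals of the same sex and stage.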
